A study of Mus musculus with 27 samples.

Results

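Integrins are paired cell-surface receptors, each made of 1 alpha and 1 beta chain, and the transcripts of 10 mouse chains are described here in CD8+ T cells sorted from tumours. The chains were Itga1, Itga4, Itgae, Itgal, Itgav, Itgax, Itgb1, Itgb2, Itgb3 and Itgb7, taken as the rows of the count table whose Ensembl gene IDs carry these symbols. They are 10 of 47729 gene IDs in the table, and all 10 were among the 14059 genes with enough counts to test.

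The study sorted tumour-infiltrating CD8+ T cells by PD-1 and KLRG1 and sequenced 27 bulk RNA libraries in 6 groups. PD-1 (gene Pdcd1) restrains T cells after activation, and KLRG1 is a lectin-like receptor that late effector cells carry. All libraries came from MC38 tumours, a mouse colon carcinoma model that the labels enter as the strain. Tumours were dissociated, and live cells were stained with antibodies to CD45, CD3 and CD8 together with both gate markers. Tri marks animals given the combined immunotherapy called TCT in the series, and Iso marks the isotype control. The agents that make up TCT, and the age and sex of the animals, are not given in the labels used here. The Tri groups were PD1+KLRG1+ with 5 libraries, PD1+KLRG1- with 5, PD1-KLRG1+ with 4 and PD1-KLRG1- with 5. The Iso groups were PD1-KLRG1+ and PD1-KLRG1-, with 4 libraries each, so that treatments were compared only among PD1- cells. The labels do not say that each library came from a separate mouse, so p-values measure the spread between these libraries only. In bulk RNA, fewer cells of a type and less RNA per cell cannot be told apart.

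Integrins bind either counter-receptors on other cells or matrix proteins, and a T cell must switch them from a bent, low-affinity form to an extended form through talin and kindlin before they hold firmly. Chains pair selectively. The beta2 chain pairs with alphaL to form LFA-1, which binds ICAMs at the contact with a target cell, and with alphaX to form CD11c/CD18. The beta7 chain pairs with alpha4 in the gut-homing receptor for MAdCAM-1 and with alphaE in CD103/beta7, which binds E-cadherin on epithelium. The beta1 chain pairs with alpha4 in VLA-4, a receptor for VCAM-1 and fibronectin, and with alpha1 in the collagen receptor VLA-1. AlphaV and beta3 form the vitronectin and osteopontin receptor, and alphaV with other beta chains activates latent TGF-beta.

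Library totals were 6991521 to 26284630 counts in 26 libraries and 93198 in Iso PD1-KLRG1+ replicate 3. The 8 CD8 T cell markers summed to 6748 to 13473 CPM (counts scaled to library size) per library, and each had counts in every group. Klrg1 and Pdcd1 followed their gates without overlap in every matched pair of groups, with Pdcd1 at 636 to 1612 CPM in PD1+ libraries and 0 to 206 CPM in PD1- libraries. The Iso PD1-KLRG1+ libraries stood apart: 9.94% to 29.5% of 6969 well-expressed genes had no count in each of them, against at most 3.59% in any other library. Summed myeloid markers were also higher in every Iso PD1-KLRG1- library, at 744 to 4068 CPM, than in any Tri library, at most 677 CPM. In Iso PD1-KLRG1+ libraries they ran from 120 to 10403 CPM. Replicate 4 was the highest in each of these Iso groups. The part of these differences in the results for the chains was not tested.

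Per kilobase of exon (CPM per kb, mean of 27 libraries), Itgb2 was highest at 374, followed by Itgb7 at 247, Itgb1 at 146 and Itgal at 129. The partner alpha chains were lower, with Itgax at 23.6 and Itga4 at 15.5 CPM per kb. Itgav at 7.74, Itgae at 6.56, Itgb3 at 6.40 and Itga1 at 2.82 CPM per kb were the lowest. The order differed between groups: in Tri PD1+KLRG1- libraries Itgb7 averaged 46.3 CPM per kb, below Itgb1 at 121 and Itgal at 112. This order rests on the joined length of all annotated exons, from 2.77 kb for Itgb7 to 18.6 kb for Itga1. That length can exceed 1 mature transcript, so levels of different chains compare only roughly. All other levels below are CPM, which compare libraries for 1 chain and not chains with each other.

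**Figure D1:**
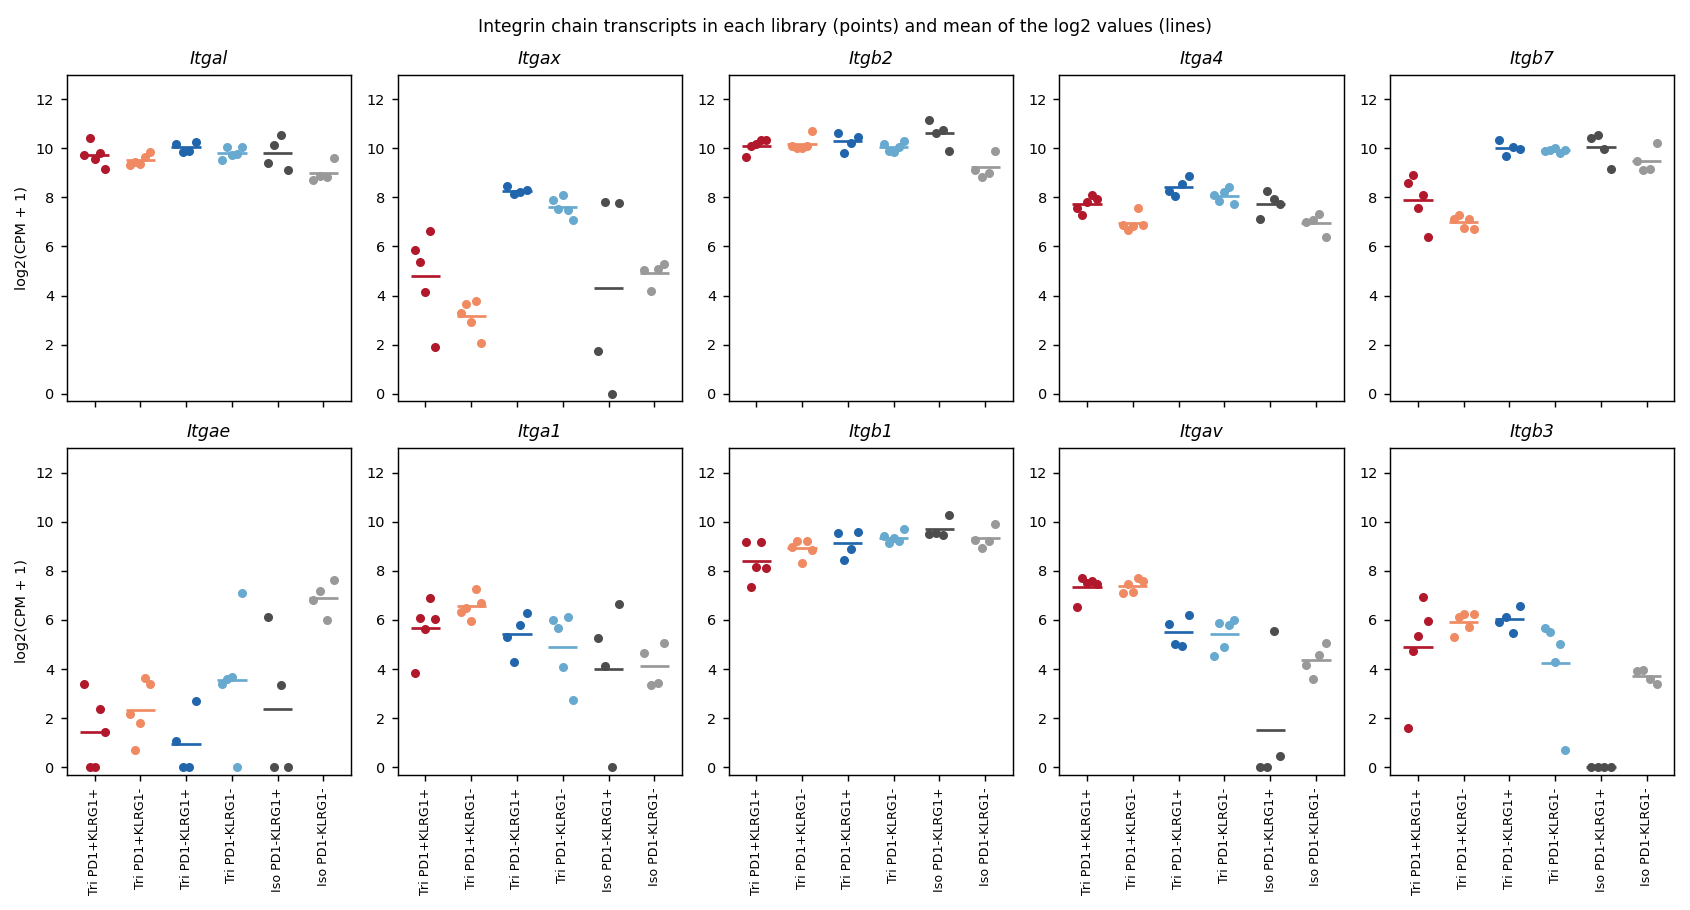
CPM of the 10 integrin chains on a log2(CPM + 1) axis in each of 27 libraries (points), by group, with the mean of the log2 values as a line. Itgb7 and Itgax are lower in both PD1+ groups than in the Tri PD1- groups, Itgav is higher there, and Itgb3 is at 0 in all 4 Iso PD1-KLRG1+ libraries.

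Of 90 pairs of chain and comparison (7 contrasts of groups and 2 interactions), 13 were called by edgeR's quasi-likelihood test at a Benjamini-Hochberg adjusted p under 0.05 over all genes. PD1+ against PD1- cells under Tri gave 1 of 10 chains called among KLRG1+ cells, where 1.20% of all genes tested were called, and 3 of 10 among KLRG1- cells, where 1.56% were. All 4 calls were lower in PD1+ cells. The libraries of the 2 groups did not overlap for 3 of 10 chains among KLRG1+ cells, against 4.97% of all genes, and for 4 of 10 among KLRG1- cells, against 8.47%. The median log2 fold change of the 10 chains was -0.39 and -0.36 in these contrasts, beside -0.01 and 0.06 over all genes. Tri against Iso gave 1 of 10 called among PD1-KLRG1- cells (0.804% of all genes) and 2 of 10 among PD1-KLRG1+ cells (6.08%), all higher in Tri. Chains without overlap numbered 2 of 10 in each, against 6.74% and 9.26% of all genes. The median of the chains was 0.92 in PD1-KLRG1- cells, beside -0.09 over all genes, and 0.27 in PD1-KLRG1+ cells, beside 0.34. The 2 kinds of contrast share the Tri PD1- libraries.

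KLRG1+ against KLRG1- cells gave 0 of 10 called in Tri PD1+ cells (0.0569% of all genes), 0 of 10 in Tri PD1- cells (0% of all genes) and 4 of 10 in Iso PD1- cells (8.66%). At an unadjusted p under 0.05 there were 3 chains in Tri PD1+ cells and 1 in Tri PD1- cells. The 3 were Itgb7 (log2 fold change 1.10 ± 0.31, SE), Itga4 (0.78 ± 0.23) and Itgax (2.29 ± 0.78). All 3 were higher in KLRG1+ cells, with overlap and adjusted p of 0.407 to 0.421. The 1 was Itgae, lower in KLRG1+ cells (-4.31 ± 1.98, SE). DESeq2 called 1 (Itgb7) and 0 chains in these 2 contrasts, and limma-voom with sample weights called 0 in both. Libraries did not overlap for 0, 1 and 1 of the 10 chains, against 2.42%, 1.80% and 17.2% of all genes. The chains' median log2 fold change was -0.03, 0.20 and 0.65, beside -0.07, -0.01 and -0.52 over all genes. The KLRG1 difference itself differed between Tri and Iso for 2 of 10 chains (3.59% of all genes called) and between PD1+ and PD1- cells for 0 of 10 (0% of all genes), with 1 chain at an unadjusted p under 0.05 in the latter and 0 called by DESeq2 or limma-voom.

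**Figure D2:**
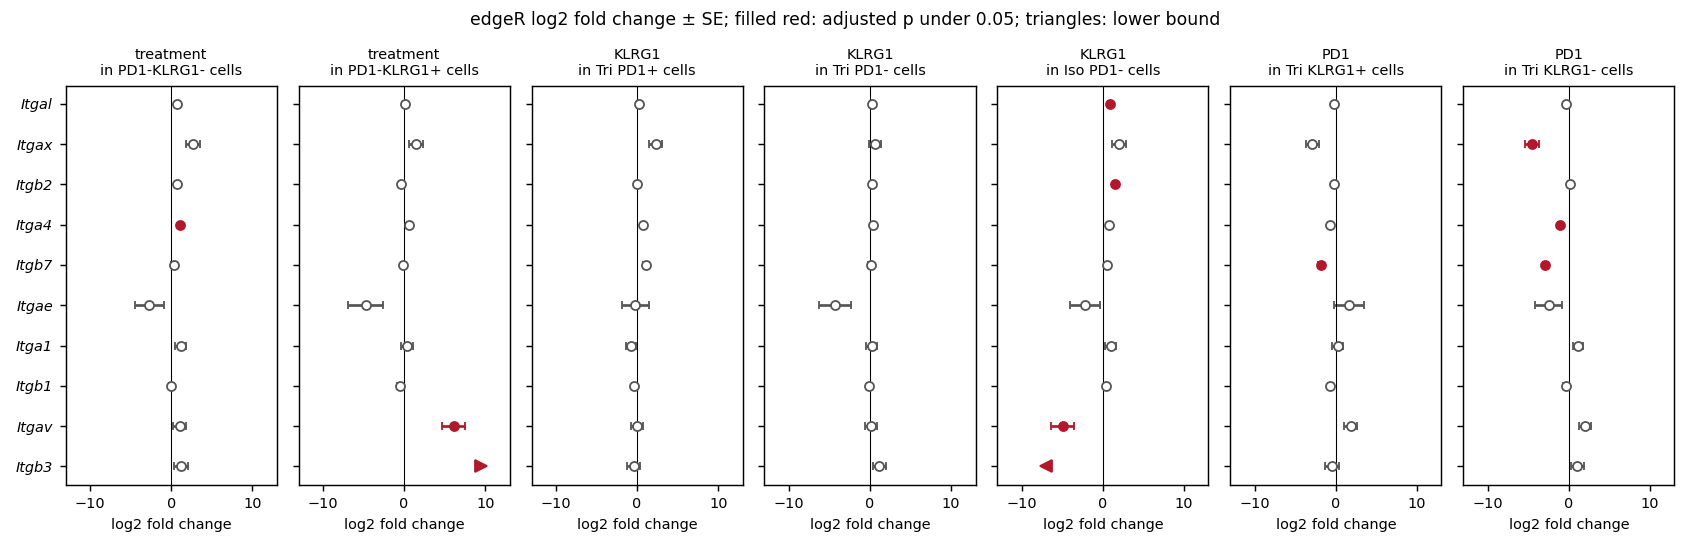
Log2 fold change with its standard error from edgeR for each chain (rows) in 7 contrasts (panels), filled red where the adjusted p is under 0.05; triangles are lower bounds where 1 group has no count. Red points for Itgb7, Itgax and Itga4 lie left of 0 in the contrast of PD1 gates among Tri KLRG1- cells.

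Itgb7 encodes the beta7 chain shared by the alpha4beta7 gut-homing receptor and CD103/beta7, and it separated the PD-1 gates most clearly of the 10 chains by p. In Tri PD1+KLRG1- replicates 1 to 5, Itgb7 stood at 139, 153, 105, 139 and 105 CPM. In Tri PD1-KLRG1- replicates 1 to 5 it stood at 956, 977, 1019.8, 888 and 969 CPM. Every PD1+KLRG1- library was below every PD1-KLRG1- library, and the gap was wider than either group's range. Itgb7 was 7.51-fold lower in the PD1+ cells, with log2 -2.91 ± 0.33 (SE) and an adjusted p of 6.26e-06, the fourth smallest p of all genes tested.

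Among Tri KLRG1+ cells, Itgb7 in PD1+ replicates 1 to 5 was 378, 484, 187, 272 and 82.6 CPM. In the 4 PD1- libraries it was 1276, 813, 1061 and 996 CPM. These groups did not overlap either, though the PD1+KLRG1+ libraries were spread widely, with replicate 5 the lowest and replicate 2 the highest. The log2 fold change was -1.88 ± 0.33 (SE, adjusted p = 0.00172). Both Itgb7 calls held under each of 11 alternative fits and without any 1 library, with adjusted p up to 0.0491 in the KLRG1+ contrast and 9.56e-05 in the KLRG1- contrast. The PD-1 difference was smaller among KLRG1+ cells by 1.03 ± 0.45 (log2, SE), which did not pass the test of the interaction (adjusted p = 0.919).

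In Itgb7 the Iso PD1- groups overlapped the Tri PD1- groups. Iso PD1-KLRG1+ replicates 1 to 4 had 1383, 1505, 995 and 576 CPM, and Iso PD1-KLRG1- replicates 1 to 4 had 711, 545, 571 and 1189 CPM. Their ranges overlapped with each other and with the Tri PD1- group of the same KLRG1 gate. In order of the mean, Iso PD1-KLRG1+ (1115 ± 420.1, SD, n = 4), Tri PD1-KLRG1+ (1036 ± 191, n = 4), Tri PD1-KLRG1- (962 ± 47.6, n = 5) and Iso PD1-KLRG1- (754 ± 299, n = 4) overlapped neighbour by neighbour. The step down to Tri PD1+KLRG1+ (281 ± 157, n = 5) was the 1 place without overlap, and Tri PD1+KLRG1- followed (128 ± 21.8, n = 5).

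Upstream sequences are shown as the genomic context of the chains that parted along the PD-1 gate, Itgb7, Itga4 and Itgax downward and Itgav upward. RefSeq windows were found for 6 of the 10 chains, and each run below is the 250 bases before the annotated start on GRCm38.p6, 5′ to 3′ on the gene's strand. Itgb7 lies at chr15:102231936-102232185 (minus strand), Itga4 at chr2:79255176-79255425, Itgax at chr7:128129300-128129549 and Itgav at chr2:83724147-83724396 (all plus strand). Capitals mark matches on either strand to CACCC, the core of sites for Krüppel-like factors, to TGTGGT (RUNX) or to TGANTCA (AP-1).
Itgb7: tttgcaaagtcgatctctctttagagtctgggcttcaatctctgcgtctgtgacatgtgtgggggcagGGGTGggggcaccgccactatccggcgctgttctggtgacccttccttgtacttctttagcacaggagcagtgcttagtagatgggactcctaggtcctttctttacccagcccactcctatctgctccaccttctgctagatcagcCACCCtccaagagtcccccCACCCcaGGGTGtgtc
Itga4: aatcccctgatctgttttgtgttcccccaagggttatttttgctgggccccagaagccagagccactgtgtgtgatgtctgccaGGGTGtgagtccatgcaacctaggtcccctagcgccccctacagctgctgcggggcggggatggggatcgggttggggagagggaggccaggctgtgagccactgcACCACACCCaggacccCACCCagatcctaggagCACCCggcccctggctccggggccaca
Itgax: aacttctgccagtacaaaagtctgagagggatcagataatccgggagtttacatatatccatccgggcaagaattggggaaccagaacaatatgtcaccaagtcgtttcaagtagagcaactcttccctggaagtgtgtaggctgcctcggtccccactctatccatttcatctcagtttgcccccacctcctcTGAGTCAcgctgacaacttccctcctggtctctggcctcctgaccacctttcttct
Itgav: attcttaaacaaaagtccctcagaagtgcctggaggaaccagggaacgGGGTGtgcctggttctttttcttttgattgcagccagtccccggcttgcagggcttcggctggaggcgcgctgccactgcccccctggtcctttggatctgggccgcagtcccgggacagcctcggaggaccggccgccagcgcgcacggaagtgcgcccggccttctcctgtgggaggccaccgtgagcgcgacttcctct

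The windows differ in these short words. Itgb7 and Itga4 each held 4 CACCC matches, Itgav held 1 and Itgax held 0. Itgb1 and Itga1, whose windows are not printed, held 2 each. Of 32851 windows of this length, 52.0% held at least 1 such match and 2.14% held at least 4. The cutoff of 4 is the number found in Itgb7 and Itga4 themselves, and the windows were not matched by base composition. In Itga4 a TGTGGT match on the reverse strand, at bases -60 to -55, overlaps a CACCC match, and 14.0% of windows hold TGTGGT. Itgax held 1 TGANTCA match at bases -56 to -50, as 6.75% of windows do. CCGGAA (ETS) and GGAAAA (NFAT), present in 12.0% and 20.4% of windows, had no match in the 6 windows. A match is a description of letters and no binding was measured.

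Itga4 encodes the alpha4 chain, the partner of beta7 and of beta1. In Tri PD1+KLRG1- replicates 1 to 5, Itga4 was 115, 99.6, 112, 186 and 117 CPM, and in Tri PD1-KLRG1- it was 272, 227, 300.3, 345 and 211 CPM. The groups did not overlap, with PD1+KLRG1- replicate 4 the nearest to the other group. Itga4 was 2.17-fold lower in PD1+ cells (log2 fold change -1.12 ± 0.24, SE, adjusted p = 0.0086), and the call held in 11 of 11 alternative fits and in 10 of 10 fits without 1 library.

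Among Tri KLRG1+ cells, Itga4 was 189, 155, 224, 269 and 242 CPM in PD1+ and 308, 261, 369 and 469 CPM in PD1- libraries. PD1+ replicate 4 lay above PD1- replicate 2, so the groups overlapped. The log2 fold change of -0.73 ± 0.25 (SE) did not pass the test (adjusted p = 0.183).

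Itga4 was the 1 chain called for treatment in PD1-KLRG1- cells. In Iso PD1-KLRG1- replicates 1 to 4 it was 125, 136, 159 and 82.2 CPM, all below the lowest Tri PD1-KLRG1- library. It was 2.09-fold higher in Tri (log2 fold change 1.06 ± 0.26, SE, adjusted p = 0.041). The call held in 1 of 9 fits without 1 library: it stayed under 0.05 without Tri replicate 5 (0.0246) and was between 0.0557 and 0.171 without any of the other 8, the highest without Iso replicate 4. It held in 9 of 11 other alternatives and was lost with RLE scaling (0.0511) and with no count filter (0.0967). Summed myeloid markers were higher in all 4 Iso libraries (744 to 4068 CPM, the highest in replicate 4) than in the 5 Tri libraries (223 to 577 CPM). The NK and innate-like sums (195 to 275 against 31.7 to 88.9 CPM) did not overlap either. Nor did the tumour and stroma sums (99.6 to 142 against 35.8 to 85.8 CPM). Their part in the Itga4 difference was not tested. In Iso PD1-KLRG1+ replicates 1 to 4, Itga4 was 136, 301, 239.6 and 209.5 CPM, overlapping Tri PD1-KLRG1+ (log2 fold change 0.66 ± 0.27, SE, adjusted p = 0.14).

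Itgae encodes alphaE, or CD103, a chain widely used to mark tissue-resident CD8+ T cells. It was highest in Iso PD1-KLRG1- cells, at 112, 144, 63.2 and 198 CPM in replicates 1 to 4. In Tri PD1-KLRG1- replicates it was 9.55, 11.1, 11.8, 0 and 135 CPM, so that 4 of 5 libraries lay below all 4 Iso libraries and replicate 5 lay within their range. The log2 fold change of -2.67 ± 1.76 (SE) did not pass the test (adjusted p = 0.937). Itgae ranged from 0 to 9.64 CPM in Tri PD1+KLRG1+, from 0.616 to 11.4 in Tri PD1+KLRG1- and from 0 to 5.53 in Tri PD1-KLRG1+ libraries. In Iso PD1-KLRG1+ it was 67.8, 0, 9.21 and 0 CPM, of which 9.21 CPM stands for 1 count in the shallow library. Without Iso PD1-KLRG1+ replicate 1 the KLRG1 contrast in Iso reached an adjusted p of 0.0484, against 0.489 with it. No contrast of Itgae passed edgeR's main test with all libraries. Other fits to all libraries called it lower in Tri. Limma-voom with sample weights did so among PD1-KLRG1- cells (adjusted p = 0.00118). DESeq2 (0.0498) and edgeR with no count filter (0.00394) did so among PD1-KLRG1+ cells. In that last contrast replicate 1 held 468 of the 469 Iso counts. Over its 8 fits without 1 library the log2 fold change ran from -5.66 to 4.15, changing sign, and 0 were called. With no count filter Itgae was also called lower in KLRG1+ than in KLRG1- cells of Tri PD1- (0.047).

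Itgax encodes alphaX, or CD11c, known as a dendritic cell marker and also present on activated CD8+ T cells. It was highest in Tri PD1-KLRG1+ cells, at 348, 279, 292 and 316 CPM, and next in Tri PD1-KLRG1-, at 235, 185, 269.8, 179.9 and 135 CPM. In Tri PD1+KLRG1+ replicates 1 to 5 it was 57.0, 40.3, 16.7, 97.4 and 2.69 CPM, and in Tri PD1+KLRG1- it was 8.88, 11.8, 6.68, 12.6 and 3.17 CPM. Every PD1+ library lay below every Tri PD1- library.

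Itgax was 23.4-fold lower in PD1+ than in PD1- cells among Tri KLRG1- libraries (log2 fold change -4.55 ± 0.86, SE, adjusted p = 0.00263). That call held in 11 of 11 alternative fits and in 10 of 10 fits without 1 library. Among Tri KLRG1+ libraries the log2 fold change of -2.89 ± 0.82 (SE) missed the threshold (adjusted p = 0.0852), and 4 of 11 alternative fits called it, with 0.00432 when the Iso PD1-KLRG1+ libraries were left out of the shared spread estimate.

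In Iso PD1-KLRG1- libraries Itgax was 32.1, 17.3, 32.9 and 37.5 CPM, all below the 5 Tri PD1-KLRG1- libraries. This 6.70-fold higher level in Tri had an adjusted p of 0.17, and 5 of 11 alternative fits called it (0.0123 without the Iso PD1-KLRG1+ libraries). Iso PD1-KLRG1+ libraries were split, at 2.32, 221, 0 and 214 CPM. The 8 dendritic cell markers summed to 21.5 to 49.3 CPM in Tri PD1-KLRG1+, 31.0 to 83.1 CPM in Tri PD1-KLRG1-, 44.6 to 114 CPM in Tri PD1+KLRG1+ and 60.8 to 138 CPM in Tri PD1+KLRG1- libraries. In Iso they summed to 178 to 534 CPM in PD1-KLRG1- and to 2.21 to 1673 CPM in PD1-KLRG1+ libraries. In Tri PD1-KLRG1+, H2-Ab1 (15.7 to 41.3 CPM), Xcr1 (1.03 to 7.83) and Zbtb46 (0 to 5.98) had counts, and Flt3, Clec9a, Cd209a, Siglech and Clec10a had none in any library.

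Itgb2 encodes beta2, or CD18, the partner of alphaL and alphaX. Under Tri it ranged from 795 to 1294 CPM in PD1+KLRG1+, from 1019.6 to 1641 in PD1+KLRG1-, from 887 to 1575 in PD1-KLRG1+ and from 931 to 1246 in PD1-KLRG1- libraries. All these ranges overlapped, and the 2 PD-1 contrasts gave log2 fold changes of -0.23 ± 0.22 and 0.13 ± 0.21 (SE). The spread came in Iso. In Iso PD1-KLRG1+ replicates 1 to 4, Itgb2 was 2257, 1589.5, 1714 and 939 CPM, and in Iso PD1-KLRG1- it was 556, 457, 511 and 953 CPM. Only replicate 4 of each group crossed, KLRG1+ replicate 4 lying just below KLRG1- replicate 4. Among PD1-KLRG1- cells Itgb2 was 1.70-fold higher in Tri than in Iso (log2 fold change 0.77 ± 0.22, SE), with overlap. That did not pass the test (adjusted p = 0.119). DESeq2, limma-voom with sample weights and other alternatives called it, 5 of 11 in all. Of 9 fits without 1 library 1 called it, the fit without Iso replicate 4 (0.028).

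In Iso PD1- cells Itgb2 was 2.73-fold higher in the KLRG1+ cells (log2 fold change 1.45 ± 0.24, SE, adjusted p = 0.000277). The call held in 8 of 8 fits without 1 library and in 9 of 10 other alternatives, but not in limma-voom with sample weights (adjusted p = 0.226). The crossing libraries are also those with the highest summed myeloid markers of their groups, 10403 and 4068 CPM. Itgb2 was lowest in the first and highest in the second. Each is also the deepest library of its group and its 1 library whose description carries an RNA-number suffix. These traits cannot be told apart in the 2 libraries. A fit that dropped replicates 3 and 4 of Iso PD1-KLRG1+ along with replicate 5 of Tri PD1-KLRG1-, an alternative chosen after seeing the data, gave 1.73 (adjusted p = 1.1e-05). The KLRG1 difference was smaller in Tri by 1.16 ± 0.32 (log2, SE, interaction adjusted p = 0.0416). That interaction held in 5 of 17 fits without 1 library, with adjusted p from 0.00172 to 0.0969, the highest without Iso PD1-KLRG1- replicate 2. It held in 5 of 10 other alternatives and was lost with the replicate block (0.0936), without the name series term (0.0578), with only the groups compared (0.108), with limma-voom (0.549) and without the shallow library (0.0554).

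Itgal encodes alphaL, the ligand-binding chain of LFA-1. It ranged from 564 to 1365 CPM over the 19 Tri libraries, and no contrast within Tri passed the test. Among PD1-KLRG1- cells Itgal was 1.72-fold higher in Tri than in Iso (log2 fold change 0.78 ± 0.25, SE), with overlap. That did not pass the test either (adjusted p = 0.203). It was called in 2 of 11 alternative fits, limma-voom and no count filter, and in 0 of 9 fits without 1 library. In Iso PD1-KLRG1+ replicates 1 to 4 it was 682, 1134, 1465 and 550.3 CPM, and in Iso PD1-KLRG1- it was 413, 471, 454 and 778 CPM. Replicate 4, the library with the RNA-number suffix in each group, again crossed between the groups. Itgal was 1.81-fold higher in the KLRG1+ cells (log2 fold change 0.86 ± 0.27, SE, adjusted p = 0.0454), a call that held in 3 of 8 fits without 1 library. It was lost without Iso PD1-KLRG1+ replicate 2 (0.102), the shallow replicate 3 (0.166), or Iso PD1-KLRG1- replicates 1 (0.123), 2 (0.128) or 3 (0.113). It held in 5 of 10 other alternatives, and was lost with the replicate block (0.0716), with only the groups compared (0.325), with limma-voom (0.48), without the shallow library and without the 3 libraries dropped for Itgb2 above (0.0605).

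Itgb1 encodes beta1, the common partner of many alpha chains, and was called by edgeR in none of the 9 tests. Limma-voom with sample weights called it lower in PD1+ than in PD1- cells among Tri KLRG1- libraries (adjusted p = 0.0422), where edgeR gave -0.41 ± 0.26 (log2, SE, adjusted p = 0.833). Its group means ran from 379 ± 194 CPM (SD, n = 5) in Tri PD1+KLRG1+ to 857 ± 265 (n = 4) in Iso PD1-KLRG1+, and neighbours in this order overlapped throughout. In Tri PD1+KLRG1+ replicates 1 to 5 it was 584, 162, 286, 585 and 279 CPM, the widest spread of any Tri group relative to its mean. Against Tri PD1-KLRG1+, at 746, 350.1, 478 and 769 CPM, the log2 fold change of -0.68 ± 0.28 (SE) did not pass the test (adjusted p = 0.302).

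Itga1 encodes alpha1, the collagen-binding chain of VLA-1 and a mark of resident memory cells. It was highest on average in Tri PD1+KLRG1-, at 80.0, 88.2, 61.0, 154 and 103 CPM, and lowest in Iso PD1-KLRG1-, at 24.4, 9.09, 9.85 and 32.2 CPM. Tri PD1-KLRG1- libraries held 62.6, 50.2, 15.9, 69.0 and 5.61 CPM, of which replicates 1 and 4 reached into the PD1+KLRG1- range. The log2 fold change of 1.11 ± 0.64 (SE) did not pass the test (adjusted p = 0.712), and none of the 9 tests called Itga1.

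Itgav encodes alphaV, the chain of vitronectin receptors and of integrins that release active TGF-beta, and it ran against Itgb7 across the PD-1 gate. It was 90.7, 206, 179, 194 and 177 CPM in Tri PD1+KLRG1+ and 137, 175, 141, 209 and 190.5 CPM in Tri PD1+KLRG1- libraries. It was 55.8, 31.4, 29.8 and 73.6 CPM in Tri PD1-KLRG1+ and 22.4, 57.2, 29.2, 54.5 and 63.4 CPM in Tri PD1-KLRG1- libraries. Every PD1+ library lay above every Tri PD1- library, with PD1+KLRG1+ replicate 1 the nearest.

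The PD-1 contrasts of Itgav were 3.49-fold (log2 1.80 ± 0.80, SE) among KLRG1+ and 3.82-fold (log2 1.94 ± 0.74, SE) among KLRG1- cells, and neither passed the test with all 27 libraries (adjusted p = 0.368 and 0.275). In each contrast 6 of 11 alternative fits called it. Leaving the 4 Iso PD1-KLRG1+ libraries out of the fit, which neither contrast uses, gave adjusted p of 0.000838 and 0.000104, and leaving out the shallow library alone gave 0.0177 and 0.00315. The log2 fold changes moved by little, to 1.85 and 1.97 without the group. In these 4 libraries Itgav had 0, 0, 5 and 7 counts.

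Those counts are 0, 0, 46.1 and 0.382 CPM in Iso PD1-KLRG1+ replicates 1 to 4, where 46.1 CPM comes from 93198 counts in all. In Iso PD1-KLRG1- Itgav was 16.8, 11.2, 23.1 and 32.5 CPM. The shallow library alone exceeded that range, and the other 3 lay below it. By the fit, Itgav was lower in Iso PD1-KLRG1+ than in Iso PD1-KLRG1- cells (log2 fold change -4.94 ± 1.41, SE, adjusted p = 0.0267) and higher in Tri than in Iso PD1-KLRG1+ cells (6.13 ± 1.43, SE, adjusted p = 0.00986). Without the shallow library the values were -7.06 (2.15e-07) and 8.23 (4.44e-08). The first call was lost without Iso PD1-KLRG1+ replicates 1 (0.0672), 2 (0.0845) or 4 (0.0599) or Iso PD1-KLRG1- replicate 3 (0.0505), and both were lost when only the groups compared were fitted, at -1.44 (0.945) and 2.71 (1.0).

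Itgb3 encodes beta3, the partner of alphaV and of the platelet chain alphaIIb. All 4 Iso PD1-KLRG1+ libraries were without a count. It was 14.2, 14.7, 10.97 and 9.60 CPM in Iso PD1-KLRG1- and 60.0, 67.7, 43.8 and 93.7 CPM in Tri PD1-KLRG1+ libraries. All libraries of both groups lay above the empty group. With 3 counts in the whole group as the floor (0.0921 CPM), Itgb3 was at least 134-fold lower in Iso PD1-KLRG1+ than in Iso PD1-KLRG1- cells (adjusted p = 0.000495) and at least 719-fold lower than in Tri PD1-KLRG1+ cells (adjusted p = 9.73e-05). The floor covers counting error only.

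Missing counts were common in those libraries. Of 4444 genes within 2-fold of Itgb3's mean of 44.4 CPM in the other 23 libraries, 63 (1.42%) likewise had no count in all 4. Of all 14059 genes tested, 2713 had none in all 4. Itgb3 lay below that mean in Iso PD1-KLRG1-, at 9.60 to 14.7 CPM, and no share was taken for genes at that level. The KLRG1 difference of Itgb3 differed between Tri and Iso (interaction adjusted p = 0.00127), a call that held in 17 of 17 fits without 1 library. All 3 Itgb3 calls were lost in limma-voom with sample weights (0.497 for KLRG1 in Iso, 0.499 for treatment, 0.557 for the interaction), and the treatment call also when only its groups were fitted (0.139). In the remaining Tri groups Itgb3 ranged from 1.99 to 123 CPM in PD1+KLRG1+, from 38.5 to 74.6 in PD1+KLRG1- and from 0.650 to 50.3 in PD1-KLRG1- libraries, with no call between them. The 8 platelet and megakaryocyte markers summed to 32.9 CPM in Tri PD1+KLRG1+ replicate 4, which was also the library with the most Itgb3 (123 CPM), and to at most 8.40 CPM in any other Tri library. Their part in that value was not tested.

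Ratios of chains within a library do not depend on its scaling, and some differed between the PD-1 gates without overlap among Tri KLRG1- cells. Per kilobase, Itgb7 relative to Itgb1 was 0.335 to 0.480 in Tri PD1+KLRG1- and 1.73 to 2.58 in Tri PD1-KLRG1- libraries. Scaled by these exon lengths, transcripts of beta1 exceeded those of beta7 in all 5 of the former and in none of the latter. Among KLRG1+ cells the gates overlapped: Tri PD1+KLRG1+ libraries spread from 0.437 to 4.40, with the highest in replicate 2, where Itgb1 was lowest, and Tri PD1-KLRG1+ libraries from 1.91 to 3.42. Iso libraries lay at 0.677 to 2.99 in PD1-KLRG1+ and 1.43 to 1.85 in PD1-KLRG1-.

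Other pairs differed less or more. Itgax relative to Itgal was 0.00478 to 0.0231 in Tri PD1+KLRG1- and 0.176 to 0.44 in Tri PD1-KLRG1- libraries, without overlap, and 0.00653 to 0.147 in Tri PD1+KLRG1+ against 0.358 to 0.418 in Tri PD1-KLRG1+, also without overlap. Itga4 relative to Itgb1 overlapped between the gates, at 0.0947 to 0.278 in Tri PD1+KLRG1+ and 0.121 to 0.225 in Tri PD1-KLRG1+ libraries. Itga4 relative to Itgb7 was 0.129 to 0.265 in Tri PD1+KLRG1- and 0.0431 to 0.077 in Tri PD1-KLRG1- libraries, without overlap. Itga1 relative to Itgb1 did not overlap there either, at 0.0323 to 0.0565 against 0.00149 to 0.0253. Both overlapped between the gates among KLRG1+ cells. Itgav relative to Itgb3 was 0.863 to 25 in Tri PD1+KLRG1+ and 0.255 to 0.51 in Tri PD1-KLRG1+ libraries, without overlap. It overlapped between the gates among KLRG1- cells. Itgal relative to Itgb2 ranged from 0.204 to 0.585 over the 19 Tri libraries, with the PD-1 gates overlapping. Itgae relative to Itgb7 was highest in Iso PD1-KLRG1-, at 0.0669 to 0.159, and at most 0.084 in every other library. These ratios are of transcripts and say nothing of assembled receptors, and no test was run on them.

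**Figure D3:**
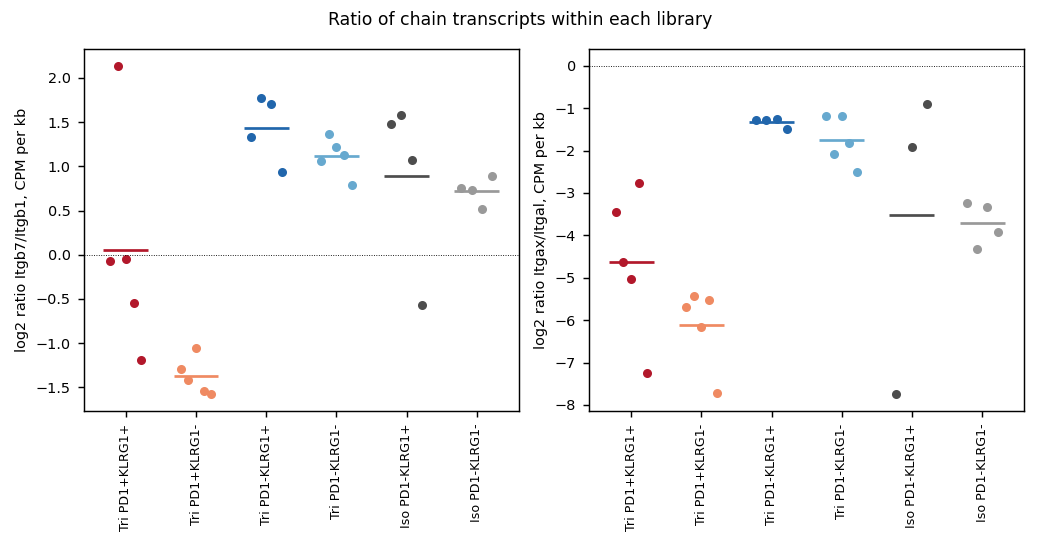
Log2 ratio of Itgb7 to Itgb1 (left) and of Itgax to Itgal (right), both per kilobase, in each library (points) by group, with the mean as a line and equality dotted; 1 Iso PD1-KLRG1+ library without an Itgax count is left out on the right. All 5 Tri PD1+KLRG1- libraries lie below equality on the left, at ratios of 0.335 to 0.480.

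The machinery that activates integrins and ties them to actin was taken as a list of 27 genes, of which 26 were tested. In the PD-1 contrasts 3 of 26 were lower among Tri KLRG1+ cells and 2 of 26 among Tri KLRG1- cells, with 0 higher, where 1.20% and 1.56% of all genes were called. Their medians were -0.20 and -0.06 (log2), beside -0.01 and 0.06 over all genes. Rasgrp2 encodes CalDAG-GEFI, which loads Rap1 with GTP upstream of integrin activation. It was 16.4, 10.5, 8.45, 15.3 and 6.27 CPM in Tri PD1+KLRG1- and 96.8, 91.2, 107, 119.8 and 82.4 CPM in Tri PD1-KLRG1- libraries, with no overlap. Rasgrp2 was lower in PD1+ cells by log2 fold changes of -3.15 ± 0.48 (adjusted p = 0.000223) among KLRG1- and -2.46 ± 0.48 (SE, adjusted p = 0.00556) among KLRG1+ cells. Cyth1, a cytohesin that binds the beta2 tail, was lower by -1.18 ± 0.30 (0.0399) and -1.41 ± 0.31 (SE, adjusted p = 0.0175). Flna, the actin crosslinker filamin A, was lower among KLRG1+ cells by -0.95 ± 0.22 (SE, adjusted p = 0.0263).

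In Iso PD1- cells 2 of the 26 were higher in KLRG1+ than in KLRG1- cells and 0 lower, a share close to the 8.66% of all genes called in this contrast. They were Zyx, the focal adhesion protein zyxin (log2 fold change 0.97 ± 0.16, SE, adjusted p = 0.000278), and Flna (1.03 ± 0.24, SE, adjusted p = 0.00617). Zyx was 1432, 1309, 1262 and 1009.7 CPM in KLRG1+ and 666, 464, 612 and 822 CPM in KLRG1- libraries, which did not overlap. By edgeR the list had 0 calls for treatment and for KLRG1 in Tri. At an unadjusted p under 0.05 there were 0 in PD1-KLRG1- and 6 in PD1-KLRG1+ cells for treatment, and 2 each for KLRG1 in Tri PD1+ and Tri PD1- cells. Tln1 (talin) and Fermt3 (kindlin-3), the direct activators, were called in no contrast.

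**Figure D4:**
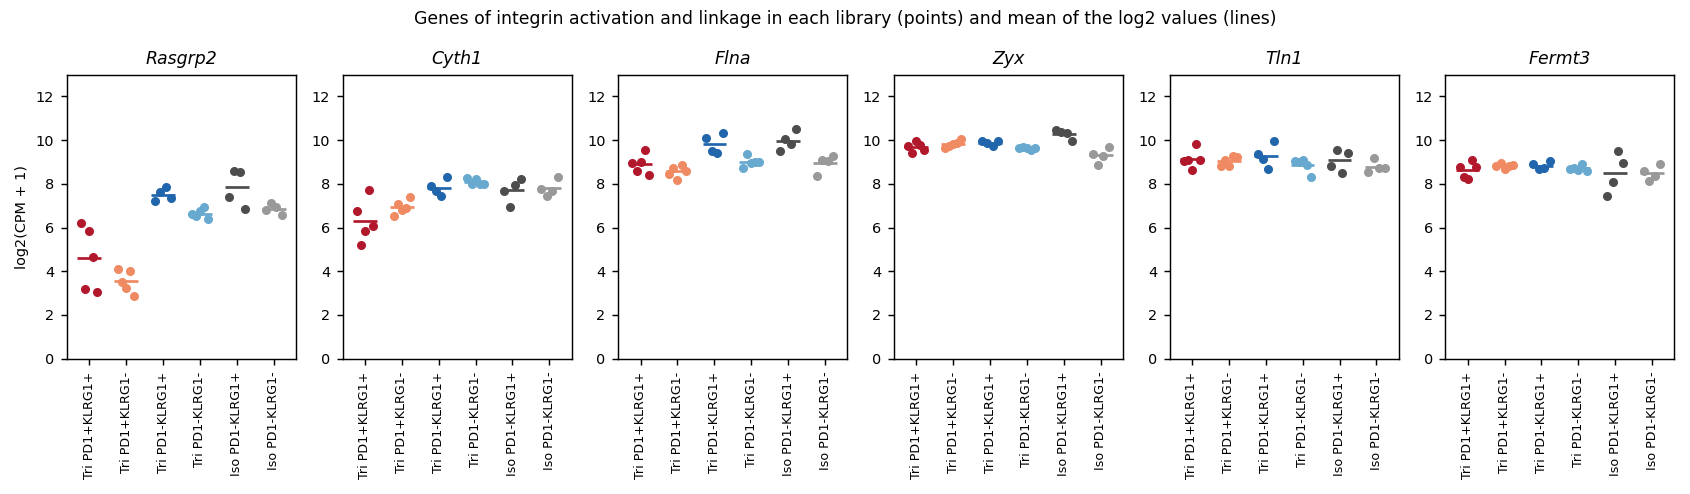
Log2(CPM + 1) of 6 genes of integrin activation and linkage in each library (points) by group, with the mean of the log2 values as a line. Rasgrp2 is at 6.27 to 16.4 CPM in Tri PD1+KLRG1- against 82.4 to 119.8 CPM in Tri PD1-KLRG1- libraries, while Tln1 and Fermt3 overlap between groups.

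Of 16 further integrin chains 12 were tested, and 1 was called, for KLRG1 in Iso (8.66% of all genes called) and for treatment in PD1-KLRG1+ cells (6.08%). With members without a count at their bound, the median log2 fold change of the list was -4.17 in the first contrast, beside -0.52 over all genes, and 3.24 in the second, beside 0.34. In these contrasts 8 and 9 of the 12 chains had no count in at least 1 of the groups, and 1 and 2 of these, at or below the floor in both, were left out of the median. Itga6, the laminin-binding alpha6 chain, was 38.5, 76.5, 38.5 and 88.4 CPM in Iso PD1-KLRG1- libraries and had 7, 1, 1 and 1 counts in Iso PD1-KLRG1+ libraries. The 4 KLRG1+ libraries all lay lower, at log2 -6.78 ± 1.45 (SE, adjusted p = 0.00348). It was also higher in Tri than in Iso PD1-KLRG1+ cells (6.55 ± 1.44, SE, adjusted p = 0.00658). In the Tri PD1- groups it was 25.9 to 84.2 CPM. Itga6 was thus near 0 in the same 4 libraries as Itgb3 and, apart from the shallow library, Itgav, all of which had many missing genes.

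Of 16 ligands and partners 13 were tested. Spp1 encodes osteopontin, a secreted ligand of alphaV and alpha4 integrins, and was the 1 call of 13 in each PD-1 contrast (1.20% and 1.56% of all genes called). It was 432, 171, 415, 231 and 359 CPM in Tri PD1+KLRG1+ and 0.693, 0, 0 and 0 CPM in Tri PD1-KLRG1+ libraries. In Tri PD1+KLRG1- it was 285 to 686 CPM, and in Tri PD1-KLRG1- 3.71 to 32.8 CPM. The groups did not overlap in either contrast, with log2 fold changes of 10.51 ± 1.53 (adjusted p = 0.000558) and 5.74 ± 1.06 (SE, adjusted p = 0.00227). Spp1 was also 1323 CPM in Iso PD1-KLRG1- replicate 4, the library with the most myeloid markers in that group. Summed myeloid markers were 236 to 677 CPM in Tri PD1+KLRG1+ against 122 to 216 CPM in Tri PD1-KLRG1+ libraries, without overlap. In the Tri KLRG1- groups they were 238 to 668 against 223 to 577 CPM. Most of the difference among KLRG1+ cells lay in Cd74, at means of 231 against 39.2 CPM. Lyz2 was also higher in PD1+ cells (44.1 against 18.2 CPM), while Cd68 ran the other way (20.1 against 40.1 CPM). The part of the myeloid markers in the Spp1 difference was not tested.

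For treatment, the ligand list had 3 of 13 lower and 1 higher among PD1-KLRG1+ cells, where 6.08% of all genes were called. Spp1 (-7.83 ± 1.45, SE, adjusted p = 0.00138), the fibronectin gene Fn1 (-6.98 ± 1.47, SE, adjusted p = 0.00427) and the collagen gene Col1a1 (-6.31 ± 1.74, SE, adjusted p = 0.0301) were lower in Tri. Cd47, which binds integrins in cis, was higher (0.61 ± 0.19, SE, adjusted p = 0.0473). Col1a1 was also lower in Tri among PD1-KLRG1- cells (-7.83 ± 1.76, SE, adjusted p = 0.0278). The 11 tumour and stroma markers, Col1a1 among them, summed to 36.9 to 3618 CPM in Iso PD1-KLRG1+ and to at most 85.8 CPM in any Tri library, and their part in these values was not tested.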

How the data were processed

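The deposited table held raw counts per mouse Ensembl gene for 27 libraries, with no normalisation by the authors to be seen in the values. DESeq2 1.26.0 is named in the submitters' processing notes without a role. No source used here gives the aligner, counter, strand setting, genome build or annotation, so reads of overlapping or antisense genes cannot be told apart. The table held 47729 IDs, of which 47224 matched a GENCODE M21 symbol.

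filterByExpr with a minimum count of 10 kept 14059 genes, and libraries were scaled by TMM. One robust quasi-likelihood model (edgeR 4.0.16, R 4.3.3) was fitted to all genes and libraries, with a mean per group and a term for the 2 name series, since some descriptions carry an RNA-number suffix. The suffix is on replicate 4 of each group and on replicate 5 where a Tri group has it. P-values were adjusted by Benjamini-Hochberg over all genes, and standard errors are the log2 fold change over the square root of F. CPM use TMM-scaled totals, and CPM per kb use union exon lengths. Alternatives were RLE scaling, no count filter, a minimum count of 50, no name series, a replicate block, fits of only the groups compared, limma-voom (3.58.1) with sample weights, DESeq2 1.42.0, and fits without libraries. The procedure was tested on simulated data.

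The members, gene lists and most tests were chosen with earlier results of these data known. Named were all 10 chains, up to 4 called members per list and contrast, and the 3 genes of at least 10 CPM nearest in profile to each chain. Tln1 and Fermt3 were named after their values were seen. The marker lists for CD8 T, myeloid, dendritic, platelet and stromal cells are reported with the chains, and those for NK and CD4 T cells with the closing observations. Figures used matplotlib 3.10.9 in Python 3.11.15.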

Additional observations from a re-analysis of the deposited data

Results flagged for a closer look

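Single libraries stood apart from the rest of their group, by the gap to the nearest library over the group's range, in 8 of 60 sets of chain and group. Chance would flag about 1 in 20 such groups if values were normal and independent. These CPM include zeros and the chains share libraries, so no excess over chance can be read from the 8. The high ones were Itga4 at 186 CPM in Tri PD1+KLRG1- replicate 4, Itgae at 135 CPM in Tri PD1-KLRG1- replicate 5 and Itgb2 at 1641 CPM in Tri PD1+KLRG1- replicate 5. In Iso they were Itgae at 67.8 CPM in PD1-KLRG1+ replicate 1, Itgav at 46.1 CPM in the shallow PD1-KLRG1+ replicate 3, Itgb1 at 1254 CPM in PD1-KLRG1+ replicate 4 and Itgal at 778 CPM in PD1-KLRG1- replicate 4. The low one was Itgav at 90.7 CPM in Tri PD1+KLRG1+ replicate 1.

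The difference between KLRG1 gates differed between Tri and Iso for 2 chains by the interaction test of edgeR, Itgb3 with an adjusted p of 0.00127 and Itgb2 with 0.0416. The Itgb2 value was lost in 5 of 10 alternatives, the replicate block among them (0.0936), and it held in 5 of 17 fits without 1 library.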

How the results depend on the processing

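Directions held throughout: in the 13 calls no alternative changed the sign. The 3 KLRG1- and 1 KLRG1+ calls for the PD-1 gate held in every fit run. Treatment in PD1-KLRG1- cells called 1 chain, against 0 with RLE scaling, 2 with only the groups compared, 3 with no count filter (Itga4 not among them), DESeq2 or no Iso PD1-KLRG1+ libraries, 5 with limma-voom and 2 without 3 libraries (the alternative chosen after seeing the data). Treatment in PD1-KLRG1+ cells called 2, 3 with no count filter or DESeq2, and 0 with only the groups compared or limma-voom. KLRG1 in Iso called 4, 5 with RLE scaling, DESeq2 or no filter, 3 without the shallow library or the 3 libraries, 2 with only the groups compared and 0 with limma-voom. KLRG1 in Tri called 0, but with no count filter 2 in PD1+ and 1 in PD1- cells, and with DESeq2 1 in PD1+ cells. The PD-1 gate in KLRG1+ cells called 1, and 2 with only the groups compared, DESeq2, no shallow library or without the 3 libraries, and 3 with no filter, limma-voom or no Iso PD1-KLRG1+ libraries. In KLRG1- cells it called 3, 5 with limma-voom, and 4, with Itgav, with no filter, only the groups compared, no shallow library, no Iso PD1-KLRG1+ libraries or without the 3 libraries. The interaction with treatment called 2, 3 with no filter, DESeq2 or without the 3 libraries, 1 without the name series or with only the groups compared, and 0 with limma-voom. Leaving out each library gave 0 to 1, 2 to 3 and 2 to 6 calls for the treatment contrasts and KLRG1 in Iso, 1 to 1 and 3 to 3 for the PD-1 contrasts in KLRG1+ and KLRG1- cells, 1 to 2 for that interaction and 0 to 0 elsewhere.

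RLE scaling moved the median of all genes by -0.19 (log2) for treatment in PD1-KLRG1+ cells, 0.15 for KLRG1 in Iso, 0.10 for the PD-1 gate in KLRG1+ cells and -0.17 for the interaction with treatment. Same-numbered libraries did not deviate together in every pair (r from -0.11 to 0.25, not all over 0.1 in any contrast). For KLRG1 in Tri PD1+ cells all 5 r were positive (0.04 to 0.21). There the same number was the closest match in 4 of 5 pairs. It was so in 3 of 5 for the PD-1 gate in KLRG1- cells, and in 1 or 2 of 4 elsewhere. The numbers are thus not shown to pair, and pairing is not excluded. The fit with the replicate block called 1, 2, 0, 0, 4, 1 and 3 chains in the 7 contrasts and 2 and 0 in the interactions; with the block Itga4 passed for KLRG1 in Iso (0.0214) and Itgal did not (0.0716), and in the interaction with treatment Itgav passed (0.0347) and Itgb2 did not (0.0936). The depth of 93198 counts in 1 library makes 1 count there worth 9.21 CPM.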

Other observations

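Among 8790 genes of at least 10 CPM, the nearest in profile to each chain were sought over the 26 libraries other than the shallow one, by the root-mean-square difference of centred log2 CPM. For Itgb7, whose own spread on this scale was 1.31, they were Cxcr3 (0.55), the receptor for interferon-induced chemokines, Gramd3 (0.58) and Ifit1bl1 (0.62). For Itgav, with a spread of 2.25, they were Pgghg (0.88), Ctla4 (0.97), which encodes an inhibitory receptor, and Lrrc57 (0.97). For Itgb2, with a spread of 0.50, they were Sla (0.29), Zyx (0.30) and Sec61a1 (0.32). For Itgax, with a spread of 2.20, none came close: Ccr2, a receptor for inflammatory chemokines, was nearest at 1.44, before Trp53inp1 (1.52) and Usp18 (1.56). Among the chains themselves Itgal and Itgb2, the chains of LFA-1, were the nearest pair (0.43), a difference about as large as their own spreads (0.44 and 0.50), and Itgae and Itgb3 the farthest (3.75).

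Markers of other lymphocytes also differed between groups. The 7 NK and innate-like markers summed to 195 to 275 CPM in Iso PD1-KLRG1- libraries. Among Tri KLRG1+ cells they summed to 2.55 to 39.2 CPM in PD1+ and 42.0 to 80.1 CPM in PD1- libraries. Among Tri KLRG1- cells they summed to 2.89 to 29.5 CPM and 31.7 to 88.9 CPM, so neither pair of gates overlapped. Most of these differences lay in Klra7, at means of 3.26 against 40.7 CPM and 4.22 against 40.7 CPM. Ncr1 had no count in any Tri group. The 5 CD4 or regulatory T cell markers summed to 137 to 342 CPM in Tri PD1+KLRG1- and to 68.5 to 93.9 CPM in Tri PD1-KLRG1+ libraries. These groups differ in both gates. Most of the sum was Ikzf2 (mean 165 against 31.3 CPM) and Il2ra (67.3 against 39.3 CPM). Cd4 was 0.842 against 0 CPM, Cd40lg 0.973 against 0.491 CPM, and Foxp3 ran the other way, at 2.25 against 8.79 CPM. Among Tri KLRG1+ cells the 5 markers summed to 137 to 265 CPM in PD1+ and 68.5 to 93.9 CPM in PD1- libraries, without overlap. Among Tri KLRG1- cells they summed to 137 to 342 and 84.0 to 272 CPM, with overlap. Their part in the results for the chains was not tested.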
